A study of Mus musculus with 2 samples.

Results

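The Myc, Max and Mxd network was followed in mouse embryonic stem (ES) cells as 9 genes: the activators Myc and Mycn, their common partner Max, the Mxd repressors Mxi1, Mxd1, Mxd3 and Mxd4, and the Max-binding repressors Mga and Mnt. Members were all probe sets whose platform gene symbol was exactly one of these names, and this gave 21 probe sets for 8 of the 9 genes, of 16563 genes measured in all. No probe set used here named Max. The family was selected on the knockdown-minus-control differences of these same arrays, that of Mxi1 among them, so the differences below are a description.

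The cells were feeder-free ES cells in medium with serum and leukaemia inhibitory factor. In the control KD group they carried a retrovirus with a control RNA sequence, and in the H2A.B KD group one with a short-hairpin RNA against H2A.B, a short variant of histone H2A. The hairpins were driven by the U6 promoter of the pMSCV-neo vector, and the infected cells of both groups were kept in G418 for 2 to 4 weeks, so that each group was a drug-selected population. The labels name no strain or ES cell line. Each group had 1 array, made from 2 µg of total RNA, and the knockdown sample is numbered 1 in its title; no value below has a replicate error and no test was possible.

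Myc and Mycn are basic helix-loop-helix leucine zipper proteins that bind the E-box sequence CACGTG as dimers with Max and raise transcription of growth genes. The Mxd proteins and Mnt compete for Max and bring the Sin3 and histone deacetylase corepressor to the same sites, and Mga joins Max in a Polycomb complex that holds germ cell genes silent in ES cells. In mouse ES cells Myc and Mycn sustain self-renewal, partly in place of each other.

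Values are log2 intensities, on which a difference of 1 is 2-fold, and every difference is knockdown minus control. Over usable probe sets the array medians were 5.64 (control) and 5.59 (knockdown). Each gene was read from its brightest probe set by the mean of both arrays, and passed a filter on low values if that mean was at least 6.73, the median over genes. This left 8282 genes and 6 of the 8 measured members: Myc, Mycn, Mxi1, Mxd3, Mga and Mnt. H2A.B itself (H2ab1, H2ab2 and H2ab3) was named by 0 of the probe sets that name a single gene. Probe sets naming several genes were not searched for it, so that the knockdown was not checked. All 11 measured ES cell markers of 12 listed passed the filter and none differed by 2-fold, with Pou5f1 at 12.65 in the control and 12.64 in the knockdown. The largest differences among them were those of Esrrb (0.33), Lin28a (0.28, with 0.04 on a probe set of similar brightness), Klf4 (0.16) and Nanog (-0.09). Sox2 differed by 0.03. Of the 11 fibroblast and feeder markers 7 passed the filter, 6 of them above 0, with a median of 0.10. The share of all genes above 0 was not computed, so nothing is read from this count. Vim differed by 0.34, Col1a1 by 0.25, Acta2 by 0.19, Fn1 by 0.10, Col3a1 and Thy1 by 0.07 each and S100a4 by -0.06. Below the filter Dcn differed by 0.26, Col1a2 by 0.0068, Postn by 0.0036 and Lum by -0.09. Of the differentiated lineage markers 3 of 11 measured passed it, with a median of -0.11. Pax6 of the neural lineage had 9.66 in the control and 8.88 in the knockdown (-0.78), with 0, -0.03 and 0.03 on its dim probe sets, Eomes differed by -0.11 and Krt8 by 0.0028. The summed intensity of the fibroblast and feeder list was 12.87 in the control and 13.02 in the knockdown (log2), with single genes from 4.14 (Lum) to 12.18 (Fn1) in the control. The part of these cells in the results was not tested. The only error estimate is technical: among the probe sets of a gene, the difference had an SD whose median was 0.0650 over the 6826 genes with at least 2 usable probe sets. This SD had a 90th percentile of 0.447 over the same genes and exceeded 0.5 in 8.34% of them.

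Most genes of the network differed little. Mxi1 was lower on the knockdown array on both of its probe sets, Mxd1 was discordant between its probe sets, and Myc, Mycn, Mxd4, Mga and Mnt lay within 0.15 of 0 on each probe set. Of the 6 members past the filter, 1 (Mxi1) was at least 2-fold lower, where 1.28% of all genes past the filter were, and 0 were at least 2-fold higher, where 0.676% were. Their median difference was 0.02, beside -0.0016 over all genes past the filter. Of the 20 usable member probe sets, 2 were at least 2-fold lower and 1 higher, where 3.07% and 1.12% of all usable single-gene probe sets were. On 14 of the 20 the difference lay within 0.15, and this was so for 66.9% of the usable single-gene probe sets. Nothing is read from these shares, because the contrast was known when the members were chosen.

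**Figure D1:**
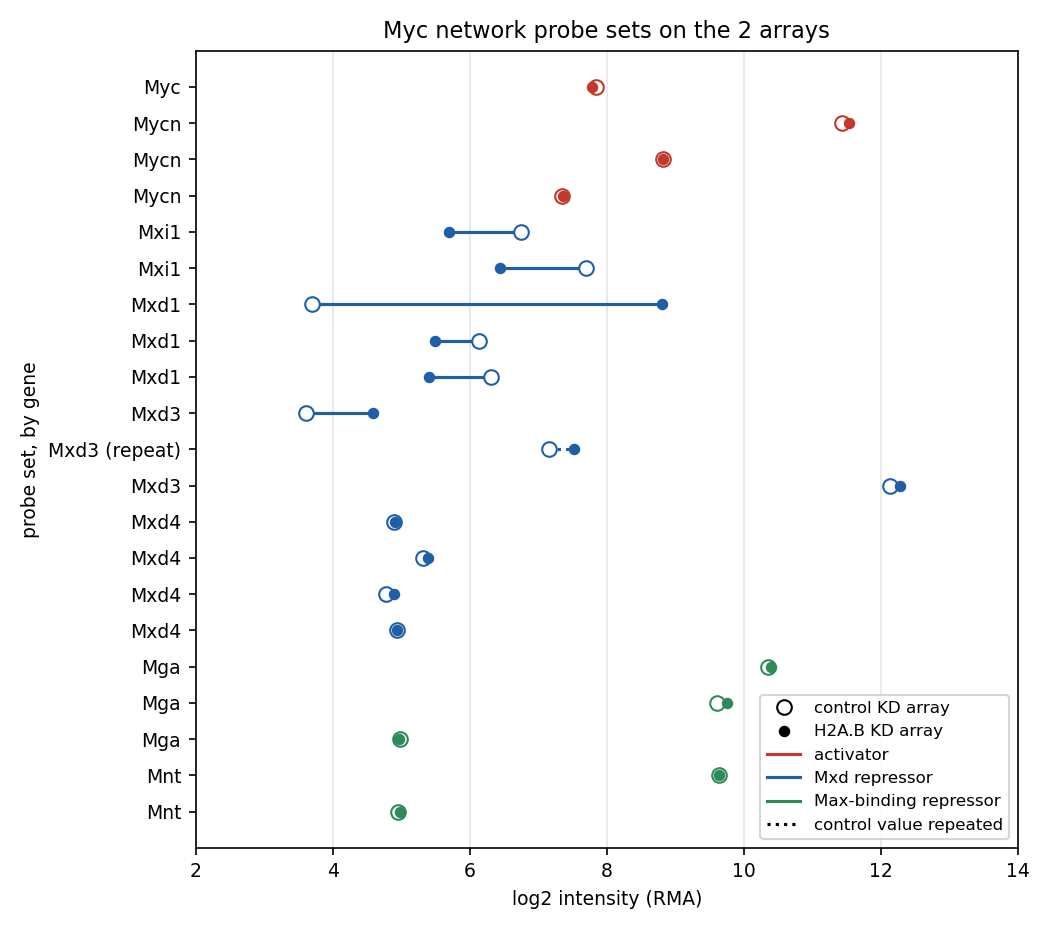
Log2 intensity (horizontal axis) of each of the 21 probe sets of the 8 measured Myc network genes (vertical axis, 1 line per probe set) on the control KD array (open circles) and the H2A.B KD array (filled circles), 1 array each, so there are no error bars. Both Mxi1 probe sets lie to the left on the knockdown array, 1 Mxd1 probe set moves from 3.70 to 8.81 while the other two lie lower, and the Mxd3 probe set with a dotted line has a repeated control value and was not used.

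The activators differed by less than 0.15. Myc, which encodes the c-Myc activator, had a single probe set with 7.84 in the control and 7.78 in the knockdown, a difference of -0.05. Mycn, which encodes N-Myc, had 11.44 and 11.53 on its brightest probe set, a difference of 0.09. Its other probe sets, both past the level of the filter, differed by less: one had 8.82 on both arrays (0.0031) and the other 7.34 and 7.35 (0.01). The SD of the difference over the 3 Mycn probe sets was 0.05, below the median SD over genes. Of all genes past the filter, 42.8% differed from 0 by at least as much as Mycn and 59.2% by at least as much as Myc.

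Mxi1, on chromosome 19, encodes a repressor that competes with Myc for Max. Its brightest probe set had 7.69 in the control and 6.44 in the knockdown, a difference of -1.25 or 2.38-fold lower. The other had 6.75 and 5.69, a difference of -1.06 or 2.08-fold lower, with a mean below the filter. The probe sets therefore pointed the same way, with an SD of 0.14 between them. In RNA of a whole culture, fewer cells with Mxi1 transcript and less transcript per cell cannot be told apart. Its brightest probe set passed the filter through its control value, since the knockdown value lay below 6.73. Of the 6826 genes with 2 or more usable probe sets, 137 (2.01%) were at least 2-fold lower on all of them. The brighter Mxi1 probe set lies in the part of the table after row 33642, where 4.53% of single-gene probe sets were at least 2-fold lower, and the dimmer in the part before row 18185, where 1.47% were. Of the genes past the filter that were read in the part after row 33642, 1.74% were at least 2-fold lower.

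In RefSeq 3 promoter windows (GRCm38.p6, 250 bases before to 50 after a transcript start) belonged to Mxi1, and the first and second starts are 18907 bases apart. The last window shares 18 bases with the one before it. The windows of the first and second starts are shown because Mxi1 was at least 2-fold lower on each of its probe sets, and those of Mnt and Mxd4 because these members hardly differed and hold the E-box. They are written 5′ to 3′ on the gene's strand in lower case, with CACGTG, which reads the same on both strands, in capitals.
Mxi1 first start, chr19:53310256-53310555, plus strand: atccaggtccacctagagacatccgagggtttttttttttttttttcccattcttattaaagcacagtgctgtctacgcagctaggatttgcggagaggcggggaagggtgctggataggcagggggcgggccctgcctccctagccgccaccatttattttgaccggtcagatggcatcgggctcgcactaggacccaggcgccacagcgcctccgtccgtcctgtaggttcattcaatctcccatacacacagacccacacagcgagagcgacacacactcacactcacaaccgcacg
Mxi1 second start, chr19:53329163-53329462, plus strand: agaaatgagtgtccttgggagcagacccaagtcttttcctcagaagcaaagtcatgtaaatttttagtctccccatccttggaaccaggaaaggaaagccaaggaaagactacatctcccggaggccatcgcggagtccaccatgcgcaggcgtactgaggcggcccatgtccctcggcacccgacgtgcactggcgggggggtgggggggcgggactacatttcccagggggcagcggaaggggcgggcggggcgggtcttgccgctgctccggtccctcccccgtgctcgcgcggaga
Mnt, chr11:74830674-74830973, plus strand: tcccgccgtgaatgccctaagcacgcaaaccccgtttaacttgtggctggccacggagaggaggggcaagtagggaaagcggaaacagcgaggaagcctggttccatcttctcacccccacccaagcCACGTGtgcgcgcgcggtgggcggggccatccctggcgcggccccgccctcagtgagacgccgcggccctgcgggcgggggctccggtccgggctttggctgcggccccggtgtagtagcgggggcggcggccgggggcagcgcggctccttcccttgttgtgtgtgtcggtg
Mxd4, chr5:34187661-34187960, minus strand: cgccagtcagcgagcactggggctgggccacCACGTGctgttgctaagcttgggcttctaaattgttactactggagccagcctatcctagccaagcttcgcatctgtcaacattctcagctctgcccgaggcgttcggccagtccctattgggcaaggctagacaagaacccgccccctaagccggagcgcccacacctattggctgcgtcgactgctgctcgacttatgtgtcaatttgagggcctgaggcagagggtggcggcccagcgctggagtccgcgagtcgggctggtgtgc

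The E-box CACGTG was in 0 of the 3 Mxi1 windows. Windows were at hand for 8 of the 9 members, all but Myc, and it was in 3 of these 10 windows, those of Max, Mxd4 and Mnt, and over all RefSeq promoter windows of this length in 7.15% of 32851. Counted by gene, it was in 3 of these 8 members and in 8.09% of 27025 genes. The windows of Mycn and Mga, whose probe sets also lay within 0.15 of 0, held none. The windows shown are therefore no comparison of members that differed with members that did not. In the Mnt window it begins 123 bases before the start, in that of Mxd4 219 bases and in that of Max 3 bases before it. The windows were searched for these letters alone, and the deposited values do not say which Mxi1 start was used.

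Mxd1, on chromosome 6, encodes the repressor Mad1, which is known to appear as cells leave the cycle and differentiate. Its 3 probe sets gave opposite answers. One had 3.70 in the control and 8.81 in the knockdown, a difference of 5.11. The others had 6.31 and 5.40 (-0.91) and 6.13 and 5.49 (-0.64), both lower on the knockdown array by less than 2-fold. The first of these had the highest mean through its knockdown value alone, since its control value was the lowest of the 3 on that array. It lies in the part of the table before row 18185, where 0.325% of single-gene probe sets were at least 2-fold higher, and its mean lay below the filter. The SD over the Mxd1 probe sets was 3.40, and 7 of 6826 genes had one as large, Mxd1 included. Read from the probe set brightest on the control array, or from the median over its probe sets, Mxd1 differed by -0.91 or -0.64, so no direction is given for it.

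Mxd3, on chromosome 13, encodes the repressor Mad3, known from proliferating cells in S phase. Its brightest probe set had 12.14 in the control and 12.28 in the knockdown, a difference of 0.14. The dimmest had 3.61 and 4.58, both below the array medians, a difference of 0.98 and so just short of 2-fold. The remaining one had 7.15 and 7.52 (0.36), but its control value was identical to the last digit to another control value a few rows above and was left out. The control value of the brightest probe set recurs in the next row of the table, where the repeat was left out in its place. That leaves 2 usable probe sets, with an SD of 0.59, above the median SD over genes. An SD above 0.5 was found in 8.34% of genes with at least 2 usable probe sets.

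Mxd4, on chromosome 5, encodes Mad4, a repressor of resting and differentiating cells. Its 4 probe sets had 4.78 to 5.31 in the control and 4.89 to 5.40 in the knockdown, all below the array medians, and differed by 0.00015 to 0.11. Signal over background was not given, so whether Mxd4 transcript was detected is not known.

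**Figure D2:**
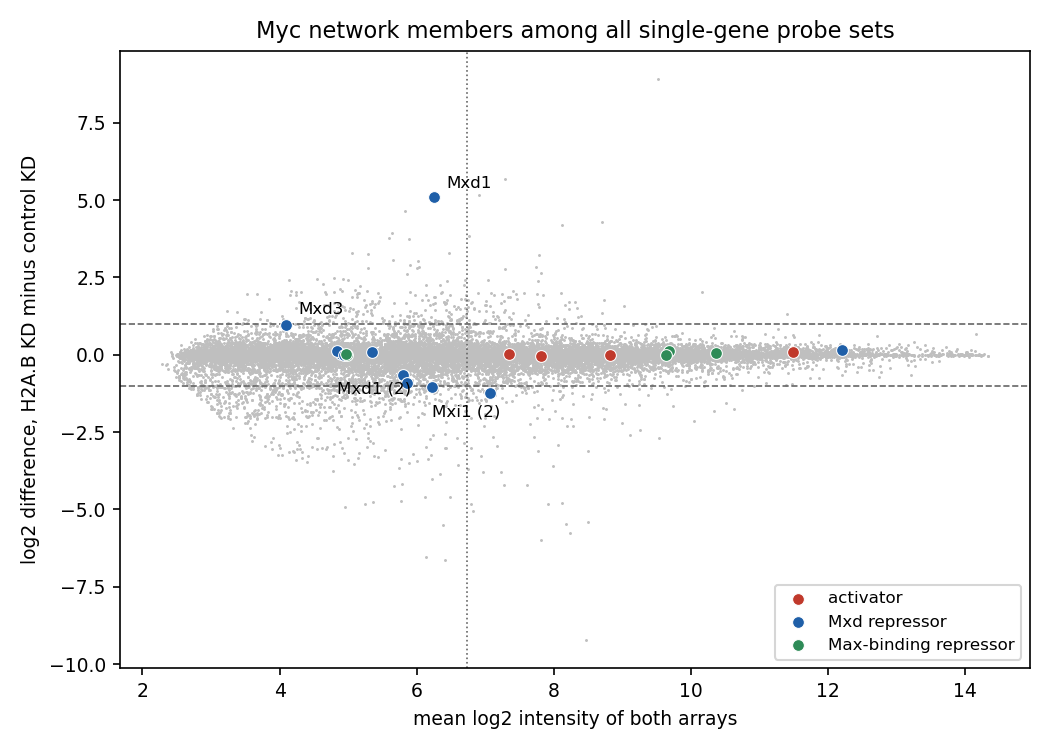
Log2 difference, H2A.B KD minus control KD (vertical axis), against the mean log2 intensity of both arrays (horizontal axis) for 27614 usable single-gene probe sets (grey) and the 20 usable member probe sets (coloured by role; a number in brackets counts the probe sets that share a label). Dashed lines mark 2-fold and the dotted line the filter at 6.73; the bright members lie near the 0 line, and the Mxi1 and Mxd1 points beyond 0.5 have means between 5.81 and 7.07.

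The Max-binding repressors Mga and Mnt hardly differed. Mga, which encodes a large protein with a T-box and a Max-binding domain, had 10.35 in the control and 10.40 in the knockdown on its brightest probe set, a difference of 0.05. Its second probe set had 9.62 and 9.75 (0.13) and its dim one 4.99 and 4.97 (-0.02). Mnt, which encodes a broadly expressed repressor that counters Myc, had 9.65 and 9.64, a difference of -0.0021. Its dimmer probe set had 4.95 and 4.98 (0.03). The SD among probe sets was 0.08 for Mga and 0.02 for Mnt.

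Other factors of the extended network were within 0.5. Of 3 past the filter of 5 measured, 0 differed by 2-fold: Mycl, which encodes L-Myc, differed by -0.23, with 0.37 and 0.03 on its dimmer probe sets. Mlx, the Max-like partner, differed by -0.04 and -0.15 on its probe sets, and Mlxip, which encodes the glucose-sensing MondoA, by 0.06. The median was -0.04. For the counts of this and the other lists, 1.28% of all genes past the filter were at least 2-fold lower and 0.676% higher. Of the same genes 69.3% lay within 0.15, and their median was -0.0016. No such share was computed for differences within 0.5 or above 0, so nothing is read from those counts.

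Of 16 Sin3 corepressor genes listed, through which the Mxd proteins and Mnt act, 13 were measured and 9 passed the filter. Of these 9, 0 differed by 2-fold, 7 lay below 0 and the median was -0.05. The deacetylase genes Hdac1 (4.58 and 3.99, -0.59) and Hdac2 (4.03 and 3.77, -0.26) lay below the filter and are not in these counts. Past the filter the inhibitor-of-growth gene Ing1 differed most, with 10.11 in the control and 9.82 in the knockdown (-0.28). Its dimmer probe sets differed by -0.39, 0.02 and -0.35. Rbbp4, a histone-binding subunit, differed by 0.10, Sin3b by -0.10 and Sap30 by -0.09. Sin3a, the scaffold, had 9.95 and 9.91 on its brightest probe set (-0.04) but 5.37 and 3.39 on its dim one (-1.97), so that the 3.92-fold lower value rests on a probe set below both array medians.

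The Polycomb complex that holds Mga and Max had 12 of 14 genes past the filter, of which 1 was at least 2-fold lower, 0 higher and 9 above 0, with a median of 0.04. Cbx3, which encodes the heterochromatin protein HP1 gamma, had 11.31 in the control and 10.18 in the knockdown, a difference of -1.13 or 2.19-fold lower. Its dim probe set had 4.11 and 3.11 (-0.9999). Tfdp2, a partner of E2F factors, differed by -0.84 on its brightest probe set, while its other probe sets past the filter's level differed by 0.0040 and 0.04. E2f6, the E2F repressor of the complex, differed by 0.38 and, on its dimmer probe set, by -0.42, and Ring1, a ubiquitin ligase subunit, by 0.08.

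Germ cell genes that Max and Mga hold silent in mouse ES cells had 13 of 17 listed genes measured and 5 past the filter, with 0 at 2-fold and a median of 0.01. Dazl, an RNA-binding protein gene of germ cells, differed by 0.99 (6.37 and 7.36), with -0.46 on its dimmer probe set. Dazl passed the filter through its knockdown value, since the control value lay below 6.73. Sycp3 of the synaptonemal complex differed by -0.35, Stag3, a meiotic cohesin gene, by 0.16 and Ddx4, the germ cell helicase gene Vasa, by -0.03 (8.62 and 8.59). Below the filter Tex101, a testis surface protein gene, had 5.42 and 3.45 (-1.96). Of the 5 past the filter, 3 lay above 0 and 2 below.

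Myc coactivators and partners had 12 of 12 measured genes past the filter and within 0.5, 9 of them above 0, with a median of 0.04. The largest differences were those of Actl6a (0.24, with -0.16 on its dimmer probe set), an actin-related subunit of acetyltransferase and remodelling complexes, Mycbp2 (0.18), Kat2a (0.17), which encodes the acetyltransferase Gcn5, and Ccnt1 (0.13), the cyclin of the elongation kinase. Ccnt1 differed by -0.02 on a probe set of similar brightness, and Mycbp2 by 0.12, 0.28 and -0.47 on its dimmer ones. Genes of Myc protein turnover had 11 of 11 within 0.5 and a median of 0.03. The deubiquitinase genes Usp28 and Usp36 differed by 0.31 and -0.28, the latter with -0.38 on its other probe set. The kinase gene Gsk3a differed by -0.15 and the ubiquitin ligase gene Huwe1 by 0.11. These are transcript levels, and the arrays do not measure Myc protein.

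Of 32 Myc target genes 28 were measured and 25 passed the filter. Of these 0 were at least 2-fold higher, 1 lower and 15 above 0, and the median was 0.03. The one was Tert, the telomerase catalytic subunit gene, with 7.94 and 6.56 (-1.39) on its single probe set. Tert passed the filter through its control value, since the knockdown value lay below 6.73. Its probe set lies in the part of the table after row 33642. There 4.53% of single-gene probe sets and 1.74% of genes past the filter were at least 2-fold lower. Rrp12, of ribosome assembly, differed by 0.47. Shmt2, of mitochondrial one-carbon metabolism, differed by 0.38, with -0.17 on a probe set of similar brightness and 0.29 on its dimmest. Cad, of pyrimidine synthesis, differed by -0.41 and -0.49 on its brighter probe sets and by 0.92 on its dimmest, so its probe sets disagreed.

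**Figure D3:**
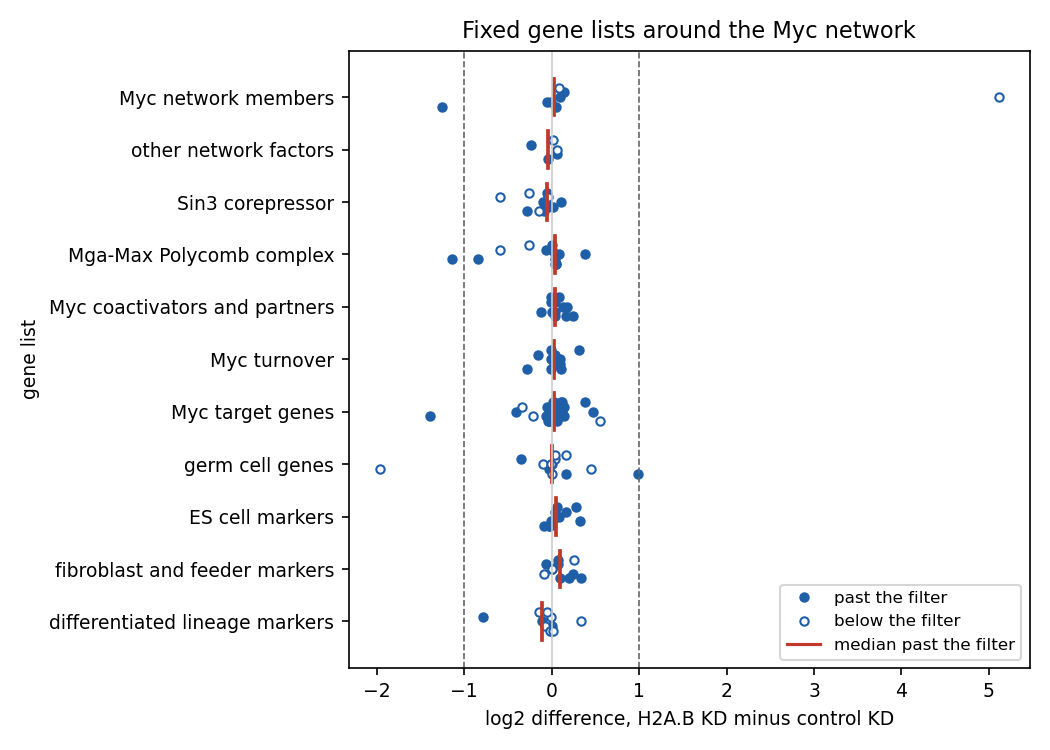
Log2 difference, H2A.B KD minus control KD (horizontal axis), of each measured gene on its brightest probe set, by fixed list (vertical axis); filled points passed the filter on low values, open points did not, red bars are medians over genes past the filter and dashed lines mark 2-fold. Medians run from -0.11 to 0.10, and the genes past the filter beyond the dashed lines are Mxi1 (-1.25), Cbx3 (-1.13) and Tert (-1.39).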

How the data were processed

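The deposited table holds 1 column per array on 45118 probe sets; the authors made the log2 intensities with RMA, per the submitters' processing notes; its version is not given in the sources used here, and the scale was inferred from the values. The knockdown column, as deposited, is not a pure intensity score: 616 values form a series rising in steps of 1 between rows 2054 and 4710, and 2 others exceed 20; these 618 were left out. So were 1455 control values, between rows 18185 and 33642, identical to a value of either array up to 20 rows above. The 2 values of the same row were not compared, so a difference of 0, as on a dim Pax6 probe set, was kept. Of the probe sets, 28898 named 1 gene, 551 several and 15669 none. Symbols came from the platform annotation, updated through a GRCm38.p6 gene table, in which 28689 were found. No centring was applied. A single array in each group allows no test, and a rule of 2-fold was used. Precision is limited by the number of arrays, which hold no read counts.

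Members and lists were chosen with earlier results of these data known. Named were all members, from each other list up to 4 genes past the filter with the largest absolute difference, and list genes at 2-fold on any probe set. Named as well were the other fibroblast and feeder markers and the deacetylase genes Hdac1 and Hdac2. The alternatives concerned the probe set standing for a gene, the filter, centring, repeated values, the size rule and the table section; choosing the probe set on the control array alone was added after seeing the data. The procedure was tested on simulated data with planted steps, repeats and differences. The simulated noise was smaller than the spread among probe sets in these data. That test therefore covers the code alone and cannot give a rate of false 2-fold differences. Python 3.11.15 with pandas 2.3.3 was used.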

Additional observations from a re-analysis of the deposited data

How the results depend on the processing

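Under alternatives 193 values were recomputed, and 168 were scored as the same as the main value. For differences this meant a shift below the median SD among probe sets of 1 gene (0.0650). For counts it meant a change of up to 1.5 times. Of the rest, 23 moved further and 2, both of Mxd1, reversed. Part of the 168 could not have moved, so their number is no measure of robustness. Median centring shifts every difference by the same amount, which lay below 0.0650. Myc has a single probe set, so the choice among probe sets cannot alter its difference. Keeping the repeated control values left every member difference as it was. Mxd1 turned from 5.11 to -0.64 with the median over probe sets and to -0.91 with the probe set brightest on the control array, because another probe set then stands for it. With the median over probe sets Mxi1 was at -1.15, Mycn at 0.010, Mxd3 at 0.56 and the other network factors at a median of 0.031. Without s, x or a probe sets Mga was at 0.13 and the median of the members at 0.094, and 87 genes were at least 2-fold higher in place of 56. With both members of each repeated pair left out Mxd3 was at 0.98, read from its dim probe set. It then no longer passed the filter, and the median of the members that did was -0.0021. With no filter 1 member, Mxd1, was 2-fold higher, 187 genes were higher and 482 lower, and the differentiated lineage median was -0.021. With the filter at the 75th percentile 0 members were 2-fold lower, since Mxi1 did not pass, and 3 genes were higher and 17 lower; lists with fewer than 3 genes left were not scored there. A 1.5-fold rule gave 149 genes higher and 318 lower, in place of 106 lower. The first section alone (before row 18185) gave 3 higher and 31 lower, the middle 30 and 46, and the last (after row 33642) 23 and 29. No paired analysis was possible because each group had 1 array, and leaving out a replicate was not possible for the same reason. Signal over background was not given, so the sizes of differences at dim probe sets are uncertain.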

Other observations

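The following values were looked up after the differences had been seen. The brighter Mxi1 probe set is preceded in the table by probe sets of Pspn (5.27 and 3.81 on the control and knockdown arrays, -1.45) and Pth2 (6.99 and 6.24, -0.75), while the 3 rows after it differed by -0.02 to 0.02. In that part of the table, after row 33642, 427 of 11476 usable probe sets were at least 2-fold lower (3.72%), and of the rows that followed one of them 4.92% were. In the part before row 18185 these shares were 1.39% and 6.61%. The Mxd1 probe set at 5.11 was 1 of 4 single-gene probe sets in the table with a difference that large or larger. Of the 113 genes with 2 or more usable probe sets and 1 at least 2-fold higher, 17, Mxd1 among them, had another that was lower by 0.5 or more.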
